A study of Mus musculus with 6 samples.

Results

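The 10 genes described here encode the receptors of transforming growth factor beta (TGF-beta), the SMAD proteins that carry its signal, the corepressors that hold the SMADs back, and the 2 chains of an integrin that releases the active ligand. The rule that took them used symbol and Entrez ID and no measured value, but it was made with earlier results of these data known. All 10 were among the 27179 genes of the count table. The cells were CD8-negative dendritic cells of C57BL/6 mouse spleen, isolated by FACS and lysed directly, and their RNA was sequenced as 6 bulk libraries. Of these, 3 were pretreated with CpG (DNA that Toll-like receptor 9 senses) and 3 had no treatment, and the title of the series speaks of paralysed cells after systemic inflammation. The series calls the libraries biological replicates, but the sources used here do not give the mice per library, their age, or the sequence, dose, route and time of CpG. The p-values therefore measure the spread between these libraries only. Both groups carry the numbers 2, 3 and 4.

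TGF-beta is secreted in a latent form, bound to its own propeptide and tethered to carrier proteins. Integrins that pair the alpha-v chain with a beta chain such as beta-8 can free it. The active ligand binds the type II receptor TGFBR2, which phosphorylates the type I receptor TGFBR1. TGFBR1 then phosphorylates SMAD2 and SMAD3, which join SMAD4 and enter the nucleus. SMAD7 blocks the type I receptor and is itself a target of the pathway, while SKI and SKIL (SnoN) repress SMAD-bound genes. In dendritic cells the pathway is known for restraining activation and, through the integrin made of alpha-v and beta-8, for presenting active TGF-beta to T cells.

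Total counts were 7855500 to 8228140 per library, so that 1 read was worth 0.123 to 0.127 CPM (counts scaled to the size of the library, with TMM factors). As a check of the labelled cell type, the dendritic cell genes Flt3 (522 to 659 CPM) and Itgax (1812 to 2275 CPM) were abundant in every library, and Cd8a lay at 1.23 to 4.69 CPM. Of 15 red pulp macrophage markers, 14 had fold changes below 1 after CpG and 6 fell by edgeR's test. Their summed level was 623, 749 and 767 CPM in libraries 2, 3 and 4 without CpG and 393, 448 and 532 CPM with it, and no marker of the list was at 0. Of 12 erythroid markers 9 were tested and 7 rose, with sums of 52.6 to 145 CPM without CpG and 335 to 1456 CPM with it. Of 10 markers of the cDC2 dendritic cell subset, 7 had fold changes below 1 and 3 above. Of these 10, only Esam fell by edgeR's test on the groups alone (adjusted p = 0.0444). With the replicate number as a block, Esam, Dtx1, Cd4 and Mgl2 fell (edgeR adjusted p = 0.00106, 0.00226, 0.0215 and 0.0243), and none of the list rose. The summed cDC2 level was 3176, 3720 and 3809 CPM in libraries 2, 3 and 4 without CpG. With CpG it was 2798, 2942 and 3794 CPM, with groups that overlapped. In bulk libraries fewer cells of a type and less RNA per cell cannot be told apart.

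The largest difference among the 9 tested members was that of Tgfbr1, whose mean level after CpG was 0.597 of the untreated one, while its partner Tgfbr2 and the signal carriers Smad2, Smad3 and Smad4 had intervals that included no change. Smad7, Itgav and Skil were lower by smaller amounts in every numbered pair of libraries. Itgb8, the beta-8 chain, gave 5 reads in all 6 libraries together. By edgeR's quasi-likelihood test with Benjamini-Hochberg adjustment over 11602 genes, 0 of the 9 tested members were called. Of all tested genes 0.974% were called (0.474% higher and 0.5% lower). At an unadjusted edgeR p under 0.05 there were 2 members, against 12.8% of all tested genes. DESeq2 called 1 member and 428 of the 11602 genes, and limma-voom called 0 members and 41 genes. With the replicate number as a block 2 of 9 fell, Tgfbr1 and Itgav, and none rose, against 8.52% of all tested genes called in either direction (4.73% higher and 3.78% lower). The groups did not overlap in 2 of 9 members, Tgfbr1 and Smad7, both lower after CpG, as in 18.7% of all tested genes (9.2% higher and 9.47% lower). The median log2 fold change was -0.10 over the tested members and -0.0054 over all tested genes.

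**Figure D1:**
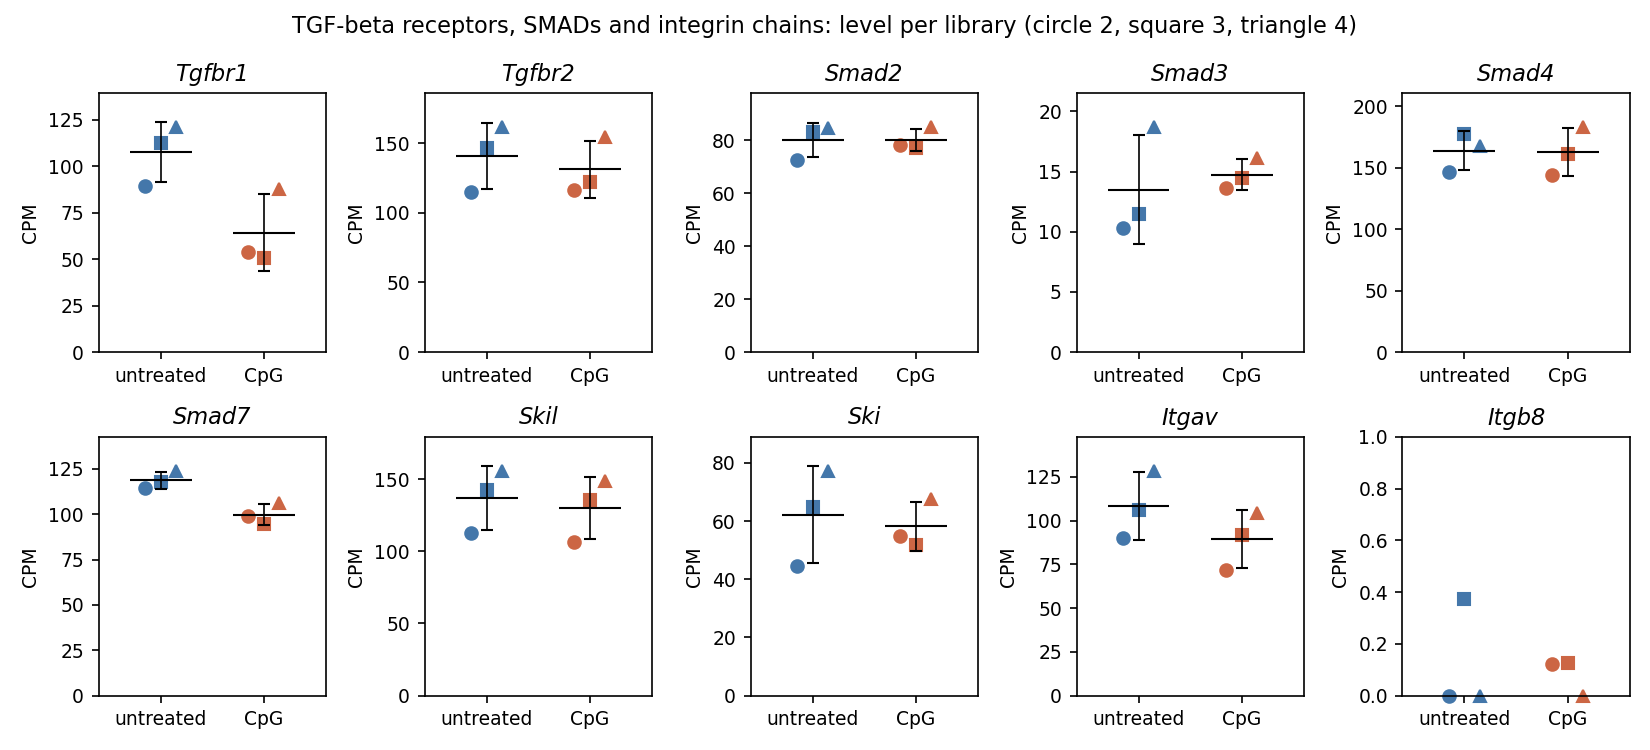
Level of each of the 10 genes in CPM (vertical axes, each from 0) in the 3 untreated (blue) and 3 CpG-pretreated (orange) libraries; circles, squares and triangles are libraries 2, 3 and 4, and bars give mean and SD for the 9 tested genes. Only Tgfbr1 and Smad7 have groups that do not overlap, and Itgb8 stays at or below 0.375 CPM.

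Tgfbr1 (Entrez 21812; GRCm38 chromosome 4, 47353222 to 47414926), the kinase that phosphorylates the SMADs, was at 89.6, 112 and 121 CPM in libraries 2, 3 and 4 without CpG. With CpG it was at 54.1, 50.9 and 88.0 CPM. Every CpG-pretreated library was thus below every untreated one, with library 4 of the CpG group close to untreated library 2. The means were 108 ± 16.3 and 64.3 ± 20.6 CPM (SD, n = 3 per group), resting on 401 to 985 reads per library. The log2 fold change was -0.74 (SE 0.22, 95% interval -1.24 to -0.25), which did not pass edgeR's test over all genes (adjusted p = 0.165).

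With the replicate number as a block, Tgfbr1 fell by 0.77 on the log2 scale (SE 0.12, edgeR adjusted p = 0.00273). The differences within the pairs numbered 2, 3 and 4 were -0.73, -1.14 and -0.46. DESeq2 also called it (adjusted p = 0.0311), as did edgeR without CpG-pretreated replicate 4 (-1.03, adjusted p = 0.0131). The blocked call was lost when both libraries numbered 2 were left out (-0.79, edgeR adjusted p = 0.139). It held without the pair numbered 3 (-0.59, edgeR adjusted p = 0.00607) or 4 (-0.94, edgeR adjusted p = 8.84e-15). Each of these fits used 4 libraries, with fewer residual degrees of freedom than the 2 of the fit on all pairs. The fit without pair 4 called 1594 genes over the whole table, against 988 with all pairs. An edgeR adjusted p as small as 8.84e-15 therefore says little about the spread of Tgfbr1 between libraries. Red pulp macrophage markers moved with Tgfbr1, their sums being 623 to 767 CPM without CpG and 393 to 532 CPM with it. The erythroid sums moved in the opposite direction. The cDC2 sums were lower with CpG within each number (2798 to 3794 CPM against 3176 to 3809 CPM), with groups that overlapped. Esam, Dtx1, Cd4 and Mgl2 of the cDC2 list also fell with the block. The part of these marker lists in the difference was not tested.

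Tgfbr2 (Entrez 21813; chromosome 9, 116087695 to 116175363), the receptor that binds the ligand, was at 115, 147 and 161 CPM in libraries 2, 3 and 4 without CpG. With CpG it was at 117, 122 and 155 CPM. The groups overlapped across nearly their whole range. Its difference was -0.10 on the log2 scale (SE 0.16, 95% interval -0.46 to 0.26, edgeR adjusted p = 0.894), so these libraries do not resolve a difference smaller than that interval.

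The receptors were also set against each other within each library, where the scaling of libraries cancels. This ratio and 4 others were chosen after the values were seen. Tgfbr1 reads per Tgfbr2 read numbered 0.781, 0.767 and 0.750 in libraries 2, 3 and 4 without CpG, and 0.464, 0.416 and 0.570 with it. The untreated libraries lay within a narrow band and all 3 CpG-pretreated libraries below it. The mean ratio was 0.766 ± 0.0156 against 0.483 ± 0.0785 (SD, n = 3 per group), and the exact two-sided permutation test gave p = 0.1 (adjusted p = 0.333 over 5 ratios), the smallest p that 3 against 3 libraries allow. Among the other ratios Smad7 over Smad4 was 0.729 ± 0.0606 and 0.617 ± 0.0595, with groups that overlapped (exact permutation p = 0.2, adjusted p = 0.333, n = 3 per group).

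**Figure D2:**
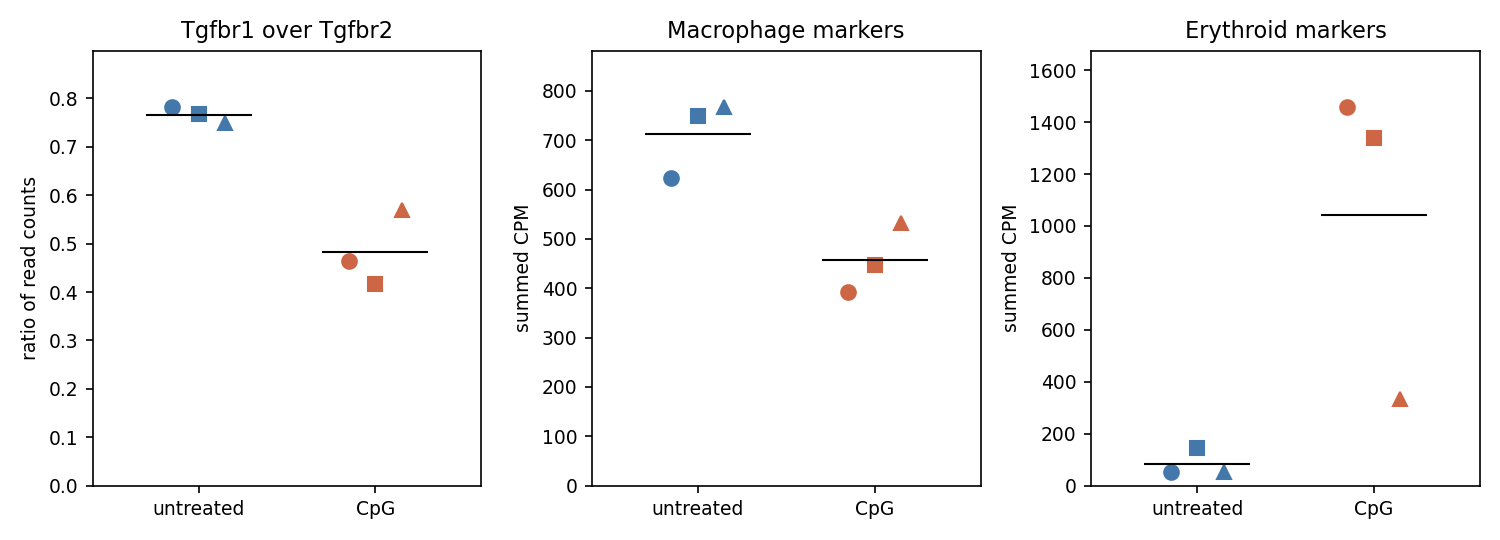
Left, ratio of Tgfbr1 to Tgfbr2 read counts in each library; middle and right, summed CPM of the red pulp macrophage and erythroid marker lists; untreated in blue, CpG-pretreated in orange, circles, squares and triangles for libraries 2, 3 and 4, lines at the means. The ratio is 0.750 to 0.781 without CpG and 0.416 to 0.570 with it; the macrophage sum is lower and the erythroid sum higher in the CpG group.

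The receptors work as a pair, and Tgfbr1 had the largest difference among the tested members, so the 250 bases before each gene's annotated start are shown for both, from the RefSeq annotation of GRCm38.p6. Capitals mark matches to GGGCGG, the core of a GC box, searched on both strands. The Tgfbr1 window is chr4:47352972-47353221 on the plus strand and the Tgfbr2 window chr9:116175364-116175613 on the minus strand, both written 5′ to 3′ along the gene.
Tgfbr1: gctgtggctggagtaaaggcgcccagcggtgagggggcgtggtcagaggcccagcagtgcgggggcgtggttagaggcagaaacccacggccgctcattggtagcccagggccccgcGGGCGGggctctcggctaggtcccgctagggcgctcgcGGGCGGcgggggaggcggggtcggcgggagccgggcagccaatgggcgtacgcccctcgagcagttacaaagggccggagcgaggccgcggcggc
Tgfbr2: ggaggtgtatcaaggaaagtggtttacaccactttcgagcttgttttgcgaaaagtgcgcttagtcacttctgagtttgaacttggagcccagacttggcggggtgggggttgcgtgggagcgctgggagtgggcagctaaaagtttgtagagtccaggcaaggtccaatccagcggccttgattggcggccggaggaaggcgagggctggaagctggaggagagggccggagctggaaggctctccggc

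The Tgfbr1 window held 2 such matches and the Tgfbr2 window 0, and 32.7% of 32851 annotated windows of this length held at least 1. Of other members, the Ski window held 5, that of Smad3 2, and those of Itgav and Itgb8 0. G and C made up 74.8% of the Tgfbr1 window and 58.4% of the Tgfbr2 window, against a median of 52.4% over all windows. The letters CAGAC, a short element that SMADs can bind, occurred on either strand 0 times in the Tgfbr1 window and 1 time in that of Tgfbr2, and in 42.2% of all windows. CCAAT, the core of a CCAAT box, occurred 2 times in each of the receptor windows and in 33.9% of all windows. Neither window held TATAAA, which 12.4% of windows did. A second annotated start of Tgfbr1 had 52.8% G and C, no GGGCGG match and 1 CAGAC match. These are descriptions of the letters, and the counts do not tell which start the reads came from.

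The SMADs that carry the signal were present at unequal levels and did not differ between groups beyond the spread of the libraries. Smad4 (Entrez 17128; chromosome 18, 73634790 to 73703791), the common partner of the phosphorylated SMADs, was at 146, 177 and 168 CPM in libraries 2, 3 and 4 without CpG. After CpG it was at 144, 161 and 183 CPM. A log2 fold change of -0.0096 was fitted (SE 0.12, 95% interval -0.29 to 0.27, edgeR adjusted p = 0.989), and the groups overlapped throughout. Smad2 (Entrez 17126; chromosome 18, 76241090 to 76311748), a receptor-phosphorylated SMAD, was at 72.6, 83.3 and 84.6 CPM without CpG and 78.3, 77.1 and 85.0 CPM with it. It had the narrowest interval of the 3 carriers, -0.23 to 0.23 around a log2 fold change of -0.00053 (edgeR adjusted p = 0.999).

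Smad3 (Entrez 17127; chromosome 9, 63646766 to 63757994), the other receptor-phosphorylated SMAD, was the lowest of the tested members. It was at 10.3, 11.5 and 18.7 CPM without CpG and 13.6, 14.5 and 16.1 CPM with it, on 84 to 152 reads. The CpG-pretreated values lay inside the untreated range, which untreated library 4 set at its upper end. The fitted difference was 0.12 on the log2 scale (SE 0.23, 95% interval -0.39 to 0.64, edgeR adjusted p = 0.918), the widest interval among the 9.

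Smad7 (Entrez 17131; chromosome 18, 75367365 to 75395935), the inhibitory SMAD, was at 115, 118 and 124 CPM in libraries 2, 3 and 4 without CpG. With CpG it was at 98.7, 94.3 and 106 CPM. The groups did not overlap, and the spread within each was small, at 119 ± 4.72 and 99.7 ± 5.84 CPM (SD, n = 3 per group). The log2 fold change was -0.25 (SE 0.094, 95% interval -0.47 to -0.037), with an unadjusted p of 0.0265 and an edgeR adjusted p of 0.293. With the block the adjusted p was 0.0569, and the differences in pairs 2, 3 and 4 were -0.22, -0.32 and -0.23. Smad7 therefore passed neither test over all genes, although its level was lower in 3 of 3 pairs.

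The corepressors gave no difference beyond the spread. Skil (Entrez 20482; chromosome 3, 31095058 to 31122923), which encodes SnoN, was at 113, 142 and 156 CPM in libraries 2, 3 and 4 without CpG and 106, 135 and 148 CPM with it. The groups overlapped, and the pair differences of -0.083, -0.071 and -0.069 were nearly equal and small. Over the groups it was -0.074 (SE 0.16, 95% interval -0.44 to 0.29, edgeR adjusted p = 0.934). Ski (Entrez 20481; chromosome 4, 155154075 to 155222535), its relative, was at 44.6, 64.9 and 77.3 CPM without CpG and 54.9, 51.9 and 67.8 CPM with it. Its pair differences went both ways, at 0.30, -0.32 and -0.19, around -0.098 over the groups (SE 0.20, edgeR adjusted p = 0.927).

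Of the integrin chains, Itgav was well measured and Itgb8 was close to absent. Itgav (Entrez 16410; chromosome 2, 83722303 to 83806917), the alpha-v chain, was at 89.8, 106 and 128 CPM in libraries 2, 3 and 4 without CpG and 71.6, 91.9 and 105 CPM with it. The groups overlapped, but within each number the CpG-pretreated library was the lower one, by 0.33, 0.21 and 0.30 on the log2 scale. The log2 fold change was -0.28 (SE 0.17, 95% interval -0.67 to 0.12, edgeR adjusted p = 0.608). With the block Itgav fell by 0.28 (SE 0.077, adjusted p = 0.0407), and this call was lost when any 1 of the pairs was left out, with edgeR adjusted p from 0.0948 to 0.148 over the 3 fits on 4 libraries.

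Itgb8 (Entrez 320910; chromosome 12, 119162803 to 119238276), the chain that gives the integrin its specificity for latent TGF-beta, had 0, 3 and 0 reads in libraries 2, 3 and 4 without CpG and 1, 1 and 0 reads with it. No library was above 0.375 CPM, and a count of 0 allows up to 0.369 to 0.378 CPM by the limit of 3 counts, which covers counting error only. The gene was therefore not tested, and no fold change is given. The label of an activating integrin is met here by its alpha chain alone at this depth. The gene model counted for Itgb8 spans 3096 bases, 28% of the 11060 bases of exon that GENCODE vM21 gives it, and reads in the other exon sequence are not in these counts. For the 9 tested members the counted model was 58.5% (Tgfbr2) to 104% (Smad2) of that length.

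**Figure D3:**
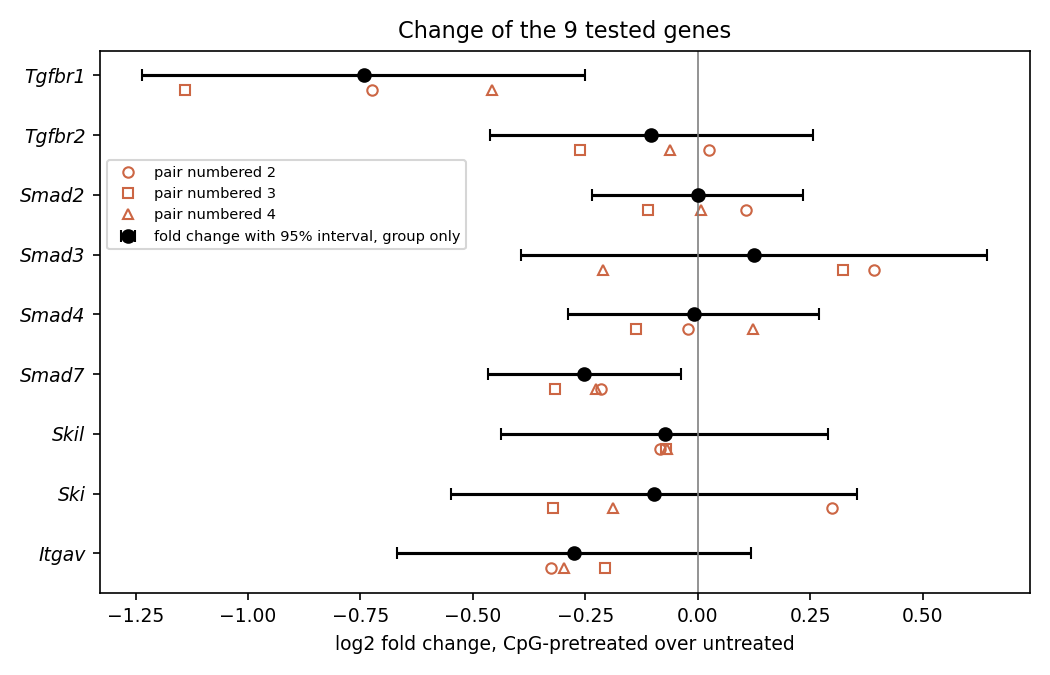
Log2 fold change of CpG-pretreated over untreated (horizontal axis) for the 9 tested genes: black points with 95% intervals from the edgeR fit on the groups alone, and open orange symbols for the difference within each numbered pair. The intervals of Tgfbr1 and Smad7 exclude 0, and Tgfbr1, Smad7, Skil and Itgav lie below 0 in all 3 pairs.

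Of the 9 tested members, 5, 8 and 7 were lower after CpG in the pairs numbered 2, 3 and 4. The members lower in all 3 pairs were Tgfbr1, Smad7, Skil and Itgav, 4 of 9, and none was higher in all 3. Among all tested genes 21.5% were lower and 22.2% higher in all 3 pairs. The members share libraries, so these 9 directions are not independent of one another.

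Levels were compared between genes as CPM divided by the length of the counted model in kilobases (RPKM). In untreated cells Smad4 stood first at 49.0 ± 4.75 RPKM, above the range of every other member. Tgfbr2 (29.4 ± 4.99 RPKM) and Smad7 (26.7 ± 1.06 RPKM) followed with overlapping ranges, and Skil (20.4 ± 3.27), Tgfbr1 (19.0 ± 2.87), Itgav (15.3 ± 2.75) and Ski (11.4 ± 3.02 RPKM) each overlapped the next in order. Smad2 was at 8.77 ± 0.716 RPKM, and its range also overlapped that of Ski. Smad3, at 2.65 ± 0.889 RPKM, lay below the range of Smad2, and Itgb8, at 0.0404 RPKM, below that of Smad3 (SD, n = 3 for each). After CpG the order changed at 1 place, where Tgfbr1 (11.4 ± 3.63 RPKM) stood below Itgav (12.7 ± 2.35 RPKM), with overlapping ranges.

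By Pearson correlation of log2 CPM over the 6 libraries, the genes with patterns most like that of Tgfbr1 among 8895 genes compared included Zfp994 (0.995), Trim32 (0.994), Dedd2 (0.994) and Hs1bp3 (0.994). These values describe 6 points that share their libraries, and the best of so many genes is high by choice. Of these, Dedd2 had a difference of -0.36 on the log2 scale (edgeR adjusted p = 0.259, and 0.0180 with the block).

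The rest of the pathway was covered by 81 other genes, of which 57 passed the filter on low counts. Like the members, they were chosen with earlier results of these data known. None of the 57 was called by edgeR over all genes, against 0.974% of all tested genes. At an unadjusted edgeR p under 0.05 there were 10 of the 57, against 12.8% of all tested genes. DESeq2 called 4 of the 57 and 428 of all 11602 tested genes, and limma-voom called 0 and 41. With the block 4 rose and 6 fell, 17.5% of the 57, where 8.52% of all tested genes were called. The median log2 fold change of the 57 was 6.9e-06, with 29 above and 28 below 0. The 10 genes called with the block are named in the next paragraphs after their values were seen.

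Among ligands and the proteins that keep them latent, 6 of 15 genes were tested. Tgfb1, the main ligand gene of immune cells, was at 508, 510 and 519 CPM without CpG and 475, 460 and 530 CPM with it. Its log2 fold change was -0.069 (SE 0.093, 95% interval -0.28 to 0.14, edgeR adjusted p = 0.869), with overlapping groups. Tgfb2 and Tgfb3 stayed under 1 CPM in every library. Nrros (LRRC33), which tethers latent TGF-beta on myeloid cells, was at 742 ± 26.0 and 660 ± 26.3 CPM (SD, n = 3 per group), -0.17 on the log2 scale (edgeR adjusted p = 0.496), while Lrrc32 (GARP), which does so on regulatory T cells, had 0 reads in all 6 libraries. Ltbp2, a latent TGF-beta binding protein gene of the extracellular matrix, was at 7.38 ± 1.63 CPM without CpG and 3.34 ± 0.344 CPM with it (SD, n = 3 per group). It had a log2 fold change of -1.14 (edgeR adjusted p = 0.0679) and fell with the block (adjusted p = 0.00438).

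Alpha-v can pair with other beta chains, and 3 of 4 were tested. Itgb1 was at 407 ± 22.3 CPM without CpG and 422 ± 19.2 CPM with it (SD, n = 3 per group), a difference of 0.052 on the log2 scale (edgeR adjusted p = 0.917). Itgb3 was at 41.1 ± 10.3 and 43.9 ± 15.5 CPM (0.096, edgeR adjusted p = 0.948). Itgb5 was at 4.55, 8.50 and 9.22 CPM without CpG and 2.33, 2.79 and 6.55 CPM with it. It fell with the block (-0.96, adjusted p = 0.0244) and was not called without it (-0.93, edgeR adjusted p = 0.402). Itgb6 had 0 reads. Per length in untreated cells, Itgb1 stood at 97.1 RPKM against 15.3 for Itgav, 7.10 for Itgb3 and 2.26 for Itgb5.

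Of 13 other receptors and co-receptors of the family 8 were tested, and none was called with or without the block. Acvr1b, a type I activin receptor gene, was at 46.7 ± 5.73 and 47.7 ± 4.89 CPM, and Acvrl1, a type I receptor gene best known in endothelium, at 26.3 ± 1.25 and 29.8 ± 6.16 CPM (SD, n = 3 per group). The co-receptor gene Tgfbr3 stayed at or under 0.504 CPM in every library. Smad1 (63.6 ± 6.82 and 58.2 ± 3.00 CPM) and Smad5 (45.5 ± 7.16 and 39.3 ± 6.57 CPM), which serve bone morphogenetic protein receptors, had log2 fold changes of -0.13 and -0.21 (edgeR adjusted p = 0.747 and 0.712). Smad6 and Smad9 did not pass the filter.

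Among 25 genes whose products modify or assist SMADs, 24 were tested and none was called without the block. The highest of these in CPM, the acetyltransferase gene Ep300 and the deubiquitinase gene Usp4, had log2 fold changes of 0.10 (edgeR adjusted p = 0.948) and 0.026 (0.967). With the block Usp15, a deubiquitinase that acts on the pathway, rose by 0.30 (adjusted p = 0.0388). Rnf111 (Arkadia), a ubiquitin ligase that removes SKIL and SMAD7, fell by 0.28 (adjusted p = 0.0430), and Zfyve9 (SARA), which brings SMADs to the receptor, fell by 0.85 (adjusted p = 0.0453), with 4.501 to 7.25 CPM without CpG and 2.08 to 4.03 CPM with it.

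Genes known to respond to TGF-beta in various cells moved in both directions. Of 20, 14 were tested and none was called without the block, while with it 3 rose and 2 fell. Axl, a receptor for apoptotic cells, was at 29.4, 52.6 and 59.1 CPM without CpG and 18.03, 27.0 and 24.1 CPM with it (-1.03, edgeR adjusted p = 0.110, and 0.000164 with the block). Macrophages express Axl too, and the part of the lower macrophage marker sums in its difference was not tested. Nuak1, a kinase gene, also fell with the block (-0.78, adjusted p = 0.0015), whereas Klf10 (0.48, adjusted p = 0.0395) and Id2 (0.38, adjusted p = 0.0494), transcriptional regulators, rose. The highest of the list in CPM, Tgfbi and Junb, had log2 fold changes of 0.035 (edgeR adjusted p = 0.958) and 0.019 (0.987). Cd207 and Ccn2 stayed at or under 0.375 CPM in every library.

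Itgae, the alpha chain of CD103, was at 1.11, 1.25 and 0.983 CPM in libraries 2, 3 and 4 without CpG and at 6.01, 9.64 and 0.756 CPM with it. It rose with the block (2.15, adjusted p = 0.0213; 2.28 and edgeR adjusted p = 0.225 without it), through libraries 2 and 3 alone. Itgae is also a marker of the cDC1 subset, and 6 of the 9 other markers on that list had fold changes above 1, with none at 0. Wdfy4 made up most of the list's sum, which without Itgae was 1803 to 2945 CPM in untreated and 2125 to 2774 CPM in CpG-pretreated libraries. With Wdfy4 also left out, a choice made after the values were seen, the other 8 markers summed to 263, 251 and 239 CPM in libraries 2, 3 and 4 without CpG and to 335, 361 and 241 CPM with it. These sums were higher than in all untreated libraries in CpG-pretreated libraries 2 and 3, where Itgae was high, and not in library 4. Xcr1, the cDC1 marker with the largest fold change after Itgae, was at 9.20, 14.6 and 4.66 CPM with CpG against 3.32 to 4.63 CPM without. Clec9a differed by 0.013 on the log2 scale, while Batf3 (-0.27), Cadm1 (-0.40) and Wdfy4 (-0.048) were lower. No marker of the list was called by edgeR without the block. With it Tlr3, Xcr1 and Irf8 rose too (edgeR adjusted p = 0.00286, 0.00474 and 0.0185), and no marker of the list was called lower. The part of cDC1 cells in the difference of Itgae was not tested.

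**Figure D4:**
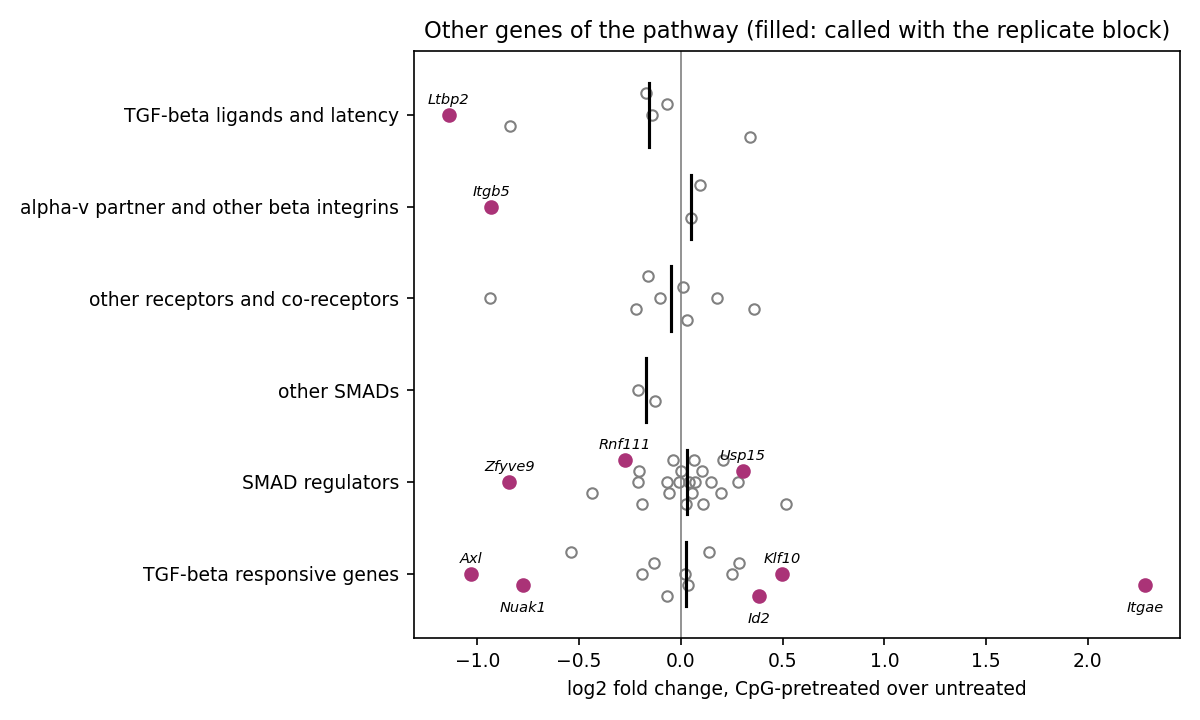
Log2 fold change of CpG-pretreated over untreated (horizontal axis) for the 57 tested other genes of the pathway, 1 circle per gene, by sub-list; black bars mark sub-list medians and filled, named circles the 10 genes called with the replicate block. Of these 10, 6 lie below 0 and 4 above.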

How the data were processed

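The authors deposited whole-number read counts per Entrez gene, made with CASAVA and featureCounts on mm10 per the submitters' processing notes. The sources used here do not give versions, aligner, strand setting or how multi-mapping reads were treated, so reads from overlapping antisense genes cannot be told apart. The counted length of each gene is a further value of the deposited table. Exon lengths for comparison came from GENCODE vM21. Symbols and positions came from RefSeq GRCm38.p6, the assembly mm10 names, by gene ID (25275 IDs matched and 1904, with 0.327% of counts, did not).

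The test was that of edgeR 4.0.16 in R 4.3.3 (filterByExpr with a minimum count of 10 and total of 15, TMM, robust quasi-likelihood F test, group only), two-sided, with Benjamini-Hochberg adjustment over 11602 genes and a call at 0.05. The procedure was tested on simulated data. Libraries of 1 group differed by 3.30 or more chi-square units per degree of freedom and were kept as separate replicates. Same-numbered libraries deviated together from their group means over all tested genes (correlations of 0.48, 0.25 and 0.31 for numbers 2, 3 and 4, each over the minimum of 0.1), and pairing was accepted on this evidence from the data, since no label says what a number marks. Deviations in both libraries numbered 2 also correlated with gene length (Spearman -0.67 without CpG and -0.55 with it). The part of this in the pairing was not tested. The blocked fit leaves 2 residual degrees of freedom. Its values are printed where it changes a call, and for Smad7. Alternatives were DESeq2 1.42.0, limma-voom (limma 3.58.1), other scalings and filters, the block, and fits without single libraries or pairs. The members and lists were chosen with earlier results of these data known. All members are named. Of the other pathway genes, those called, the 2 of each sub-list with the highest mean CPM and the ligands are named. Of the 5 genes most like Tgfbr1, 4 are named and 1 is not reported here. Tgfbr1 was taken for this because it was the tested member with the largest absolute fold change, among protein-coding genes averaging 3 or more in log2 CPM. CPM and RPKM use the TMM-scaled library sizes.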

Additional observations from a re-analysis of the deposited data

How the results depend on the processing

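The number of genes called over the whole table was 113 (55 higher and 58 lower), and 428 by DESeq2 (260 higher and 168 lower), 41 by limma-voom, 189 without a filter, 67 without both libraries numbered 2 and 988 with the replicate block. Leaving out single libraries gave 0 to 386, and the block on 2 of the 3 pairs, chosen after the data were seen, gave 513, 482 and 1594 without numbers 2, 3 and 4. Members called were 0, but 1 by DESeq2 and 2 with the block. They were 0 to 1 without single libraries, with the call made without CpG-pretreated replicate 4, and 0 to 1 with the block on 2 pairs. Wider pathway genes called were 0, but 4 by DESeq2, 1 without a filter, 1 without both libraries numbered 2, 10 with the replicate block, 0 to 3 without single libraries and 4, 3 and 15 with the block on 2 pairs. Tgfbr1, Smad7 and Itgav stayed below 0 under all 17 alternatives, at -1.03 to -0.59, -0.30 to -0.21 and -0.40 to -0.13. The block changed no member's call other than those of Tgfbr1 and Itgav.

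Members near 0 changed sign. Smad2 gave 0.0077 by DESeq2, 0.0015 by limma-voom, 0.0023 without a filter, 0.0050 with the filter at 1 CPM and 0.0012 with the replicate block. Without single libraries it ranged from -0.053 to 0.041, Tgfbr2 from -0.24 to 0.0077, Smad3 from -0.023 to 0.43, Smad4 from -0.10 to 0.072, Skil from -0.18 to 0.053 and Ski from -0.28 to 0.091. With the block and without the pair numbered 3, Smad2 gave 0.058, Smad4 0.052 and Ski 0.044. The cause was not tested. Itgb8, at 5 reads in all, was too low to be tested.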

Other observations

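The tested members shared 1 extreme library in each group. Untreated library 2 was the lowest of its group in 9 of 9 tested members, and CpG-pretreated library 4 was the highest of its group in 9 of 9. Over all tested genes these libraries held those places in 43.4% and 33.3%. The members are long genes, with a median counted length of 5465 bases against 2794 over all tested genes. Among the 4520 tested genes at least as long as the shortest tested member, untreated library 2 was lowest in 76.5% and CpG-pretreated library 4 highest in 51.4%. Deviations from the group mean correlated with gene length at -0.67 in untreated library 2 and -0.55 in CpG-pretreated library 2 (Spearman, across genes, which are not independent), and at 0.23 to 0.53 in the other 4.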
